A study of Sus scrofa with 6 samples.

Results

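The microRNAs (miRNAs) miR-374a, miR-374b, miR-421 and miR-545 come from a cluster on the X chromosome, and their products were followed in pig skin of different colour. The members were taken by name: every row of the deposited table with a porcine name (ssc-) whose stem, without its arm suffix, is one of these 4. This gave 6 of the 898 miRNAs listed, namely ssc-miR-374a-5p, ssc-miR-374a-3p, ssc-miR-374b-5p, ssc-miR-374b-3p, ssc-miR-421-3p and ssc-miR-545-5p. The cluster was selected on earlier results of these libraries, namely the RPM difference of ssc-miR-374a-5p between black and white skin. Values for that contrast are therefore given as a description, with no p-value.

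Small RNA was sequenced from skin of Xiang pigs, a small Chinese breed, in 6 libraries: S03, S04 and S05 were made from black skin, while S02, S06 and S07 were made from white skin. In all 6 the hair was removed after disinfection, and the skin was kept frozen in the preservative RNAwait. The labels give no treatment beyond this preservation and no genotype, age, sex, body site or animal for any library. Whether the libraries of 1 colour stem from different animals is not stated, so the spread between libraries may be technical. Nor is it stated whether black and white libraries share animals. The study asks which miRNAs and genes bear on melanin formation in this breed. Values are RPM (reads scaled to a total of 1e+06 listed miRNA reads per library), from 7332769 to 8647930 reads per black library and 6454685 to 10165949 per white library.

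A miRNA is cut from a hairpin-shaped precursor that can release a product from its 5′ side (5p) and one from its 3′ side (3p). Loaded into an Argonaute protein, the product pairs with messenger RNAs, mainly through the bases near its 5′ end, and lowers their stability or translation. In human these 4 miRNAs lie within introns of FTX, a long non-coding RNA gene of the X-inactivation centre. In human cells miR-374a is known as an activator of Wnt signalling in breast cancer and miR-421 as a repressor of the DNA-damage kinase ATM.

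The 4 precursors form 2 close pairs inside 1 annotated gene. In the RefSeq annotation of Sscrofa11.1, MIR421 lies at chrX:59550992-59551069 and MIR374B at chrX:59551146-59551225, with 76 bases between them. MIR545 lies at chrX:59602710-59602788 and MIR374A at chrX:59602875-59602954, with 86 bases between them. The pairs are 51.5 kb apart. All 4 lie within the bounds of the long non-coding RNA gene LOC102165633, at chrX:59544249-59608630. The nearest protein-coding gene in the table, ZCCHC13, starts 5139 bases beyond the end of LOC102165633. The annotation table gives neither exons nor strand, so exonic and intronic positions were not told apart here.

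**Figure D1:**
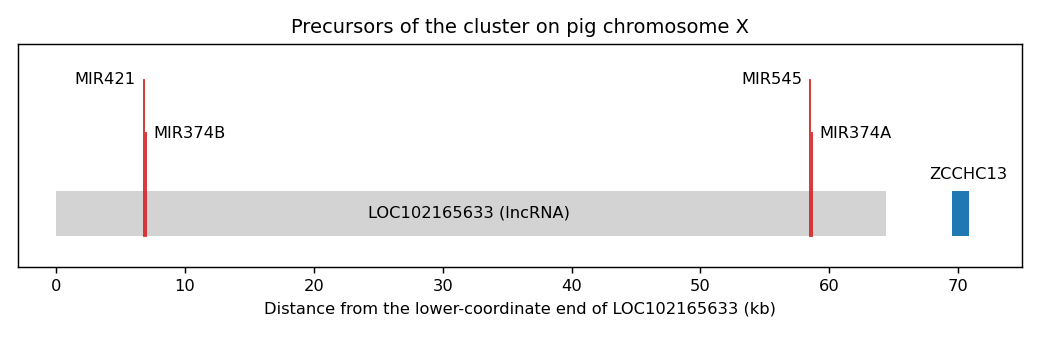
Positions of the 4 precursors (red lines) within LOC102165633 (grey) and of ZCCHC13 (blue) on pig chromosome X, as distance in kb from the lower-coordinate end of LOC102165633. MIR421 and MIR374B start at 6.74 and 6.9 kb, and MIR545 and MIR374A at 58.5 and 58.6 kb.

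The cluster was a minor part of the skin miRNAs, and each member had reads in all 6 libraries, although the 2 reads of ssc-miR-545-5p in S06 lie under the 3 that a count of 0 allows. Its 6 members together measured 1992, 2053 and 2137 RPM in black skin (libraries S03, S04 and S05), against 1754, 1018 and 1067 RPM in white skin (libraries S02, S06 and S07). The groups did not overlap, and S02 lay closer to the black libraries than to the other white ones. ssc-miR-374a-5p, on which the cluster was chosen, supplied between 39.2% and 48.6% of this sum by library. The separation of the sums is therefore not independent of that choice and is a description. The summed level averaged 2061 ± 72.8 RPM in black skin and 1280 ± 412 RPM in white skin (SD, n = 3 each), that is 0.206% and 0.128% of the listed miRNA reads.

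The 5p product of MIR374A was the most abundant member in each of the 6 libraries. Over all libraries ssc-miR-374a-5p averaged 746 RPM, ssc-miR-374b-5p 514 RPM and ssc-miR-374a-3p 374 RPM. The others were scarce, with 25.6 RPM for ssc-miR-421-3p, 8.88 RPM for ssc-miR-374b-3p and 1.13 RPM for ssc-miR-545-5p. Among the 280 miRNAs with a porcine name, ssc-miR-374a-5p ranked between 48 and 75 by library and ssc-miR-545-5p between 228 and 260. Thus the precursor pair of MIR545 and MIR374A, separated by 86 bases, held both the most and the least abundant member listed. Of MIR545 only the 5p product has a row, and of MIR421 only the 3p product. The output of these whole hairpins was therefore not ranked.

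Levels were compared between members within libraries, on the log2(RPM + 1) scale. Each of the 15 pairs of members was tested with a two-sided exact permutation test of its 6 within-library differences against 0, adjusted over the 15 pairs. The order was the same in 6 of 6 libraries for 14 of the pairs (n = 6; exact permutation p = 0.0312 for each, the smallest that 6 libraries allow, adjusted p = 0.0335). The exception was ssc-miR-374b-5p and ssc-miR-374a-3p, which were not separated, the first being higher in 5 of 6 libraries by 0.42 ± 0.31 on average (SD, n = 6; exact permutation p = 0.0625, adjusted p = 0.0625). These tests take the 6 libraries as independent, which the labels do not state. Pairs with ssc-miR-374a-5p also use the values on which the cluster was chosen. The gaps between neighbours in the order are descriptions, since the same libraries set the order. ssc-miR-374a-5p exceeded ssc-miR-374b-5p by 0.51 ± 0.29 (SD, n = 6), with a smaller gap in white skin. Below ssc-miR-374a-3p came a wide gap, of 3.81 ± 0.54, to ssc-miR-421-3p. ssc-miR-421-3p exceeded ssc-miR-374b-3p by 1.43 ± 0.36, and that in turn exceeded ssc-miR-545-5p by 2.26 ± 0.46 (SD, n = 6). The size of these last gaps depends on the added pseudocount: with 10 in place of 1 they were 0.91 and 0.76, and with 0.1 they were 1.52 and 3.08. How well each sequence is captured in library preparation was not measured. How reads were assigned between miR-374a and miR-374b is not given. These are therefore orders of read levels.

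**Figure D2:**
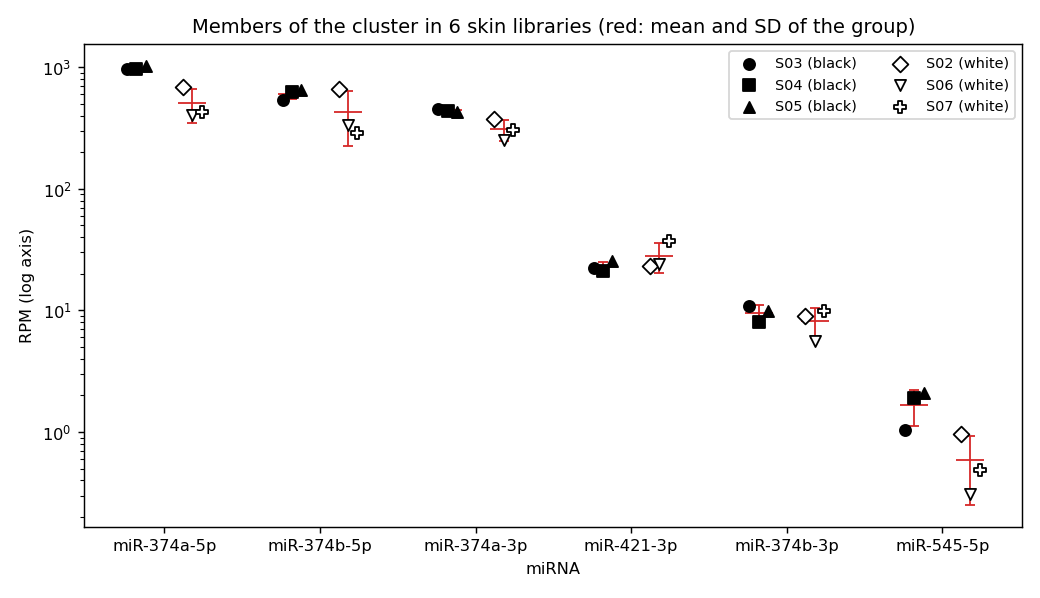
RPM of the 6 members (log axis) in each library, with black skin as filled symbols on the left of each pair and white skin as open symbols on the right; red lines are group means with SD (n = 3). The 3 products at the left lie at 250.4 RPM or above in all 6 libraries, and the white library S02 sits highest of the white ones for each of them.

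Both products of MIR374A were higher in each black library than in any white one. ssc-miR-374a-5p measured 967, 965 and 1023 RPM in black skin (libraries S03, S04 and S05), against 688, 402.5 and 431 RPM in white skin (libraries S02, S06 and S07). The black libraries lay within a narrow band and all above the white ones, of which S02 was the highest. The group means were 985 ± 33.0 RPM in black libraries and 507 ± 157 RPM in white ones (SD, n = 3 each), 1.94-fold higher in black skin. The log2(RPM + 1) difference, black minus white, was 0.999 with a standard error of 0.23 (limma, fitted across all tested miRNAs).

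The opposite arm of the same hairpin, ssc-miR-374a-3p, measured 455, 435 and 431 RPM in black S03, S04 and S05, against 371, 250.4 and 303 RPM in white S02, S06 and S07. Here too the groups did not overlap. It averaged 440 ± 13.2 RPM in black libraries and 308 ± 60.8 RPM in white ones (SD, n = 3 each), with a difference of 0.53 and a standard error of 0.20.

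The 5p product of the paralogous hairpin MIR374B followed the same pattern except in S02. ssc-miR-374b-5p measured 535, 621 and 646 RPM in black S03, S04 and S05, against 662, 335 and 286 RPM in white S02, S06 and S07. The highest value of all 6 libraries was in the white library S02, so the groups overlapped. It averaged 601 ± 58.3 RPM in black libraries and 427.5 ± 204 RPM in white ones (SD, n = 3 each), with a difference of 0.59 and a standard error of 0.30. The size of this difference rested on single white libraries: it was 0.95 without S02, 0.46 without S06 and 0.35 without S07.

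The scarcer arm of MIR374B did not separate the groups. ssc-miR-374b-3p measured 10.8, 8.05 and 9.83 RPM in black S03, S04 and S05, against 9.04, 5.58 and 9.94 RPM in white S02, S06 and S07. The white library S07 reached the level of the black ones, and S06 was the lowest of all. These values rest on 36 to 101 reads per library. The exact Poisson 95% interval was 3.91 to 7.72 RPM for S06 and 8.09 to 12.1 RPM for S07, so these white libraries differed by more than counting error. Such intervals cover counting error only. The black-minus-white difference was 0.23 with a standard error of 0.32.

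ssc-miR-421-3p, from the precursor next to MIR374B, did not separate the groups either. It measured 22.3, 21.3 and 25.4 RPM in black S03, S04 and S05, against 23.3, 24.2 and 37.3 RPM in white S02, S06 and S07. Only S07 stood above the rest, and the other 5 libraries lay within a few RPM of each other. The means were 23.0 ± 2.17 RPM in black libraries and 28.2 ± 7.84 RPM in white ones (SD, n = 3 each), with a difference of -0.26 and a standard error of 0.29, or -0.05 without S07.

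ssc-miR-545-5p was close to the detection limit. It had 8, 14 and 18 reads in S03, S04 and S05, against 7, 2 and 5 reads in S02, S06 and S07. That is 1.03, 1.91 and 2.08 RPM in black skin and 0.959, 0.310 and 0.492 RPM in the white ones. The groups did not overlap, but S03 and S02 were nearly equal, and the exact Poisson 95% interval of S02, 0.386 to 1.98 RPM, reached past the values of S03 and S04. It did not pass the filter on low counts and has no value in the fit.

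Of the 6 members, 5 were tested, and each of these had at least 10 reads in all 6 libraries. In the fit across all 454 tested miRNAs, 1 of the 5 was called higher in black skin (adjusted p under 0.05), ssc-miR-374a-5p, and 0 were called lower. Among all tested miRNAs 3.96% were called higher and 3.08% lower. At an unadjusted p under 0.05 limma had 2 members higher, both arms of miR-374a, and 0 lower, against 15.0% and 10.6% of all tested miRNAs. With adjustment, edgeR on the recovered reads called 1 member higher and 0 lower, against 2.86% and 3.74% of all, and DESeq2 1 higher and 0 lower, against 7.49% and 4.19% of all. The groups did not overlap for 2 of the 5, both arms of miR-374a, in the direction of higher levels in black skin. This held for 13.4% of all tested miRNAs, and for 13.9% in the other direction. The median difference was 0.53 over the 5 members, -0.05 over the 242 tested miRNAs with a porcine name and 0.00 over all tested miRNAs. Since members of 1 hairpin share a precursor and the contrast was known when the cluster was chosen, nothing is read from these counts. The call of ssc-miR-374a-5p was not kept on leaving out most single libraries, although its difference stayed at 0.85 or above. The call was lost without S03 (difference 1.01), S04 (1.01), S05 (0.97), S06 (0.85) or S07 (0.90), each with 1 group reduced to 2 libraries. Calls over all tested miRNAs fell as well, from 18 higher and 14 lower with all 6 libraries. They were 6 and 3 without S03, 9 and 9 without S04, and 3 and 4 without S05. Without S06 they were 4 and 3, and without S07 they were 7 and 7. Without S02 the call of ssc-miR-374a-5p was kept (1.24), and ssc-miR-374b-5p was called as well (0.95). Calls over all tested miRNAs rose there too, to 23 higher and 18 lower.

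**Figure D3:**
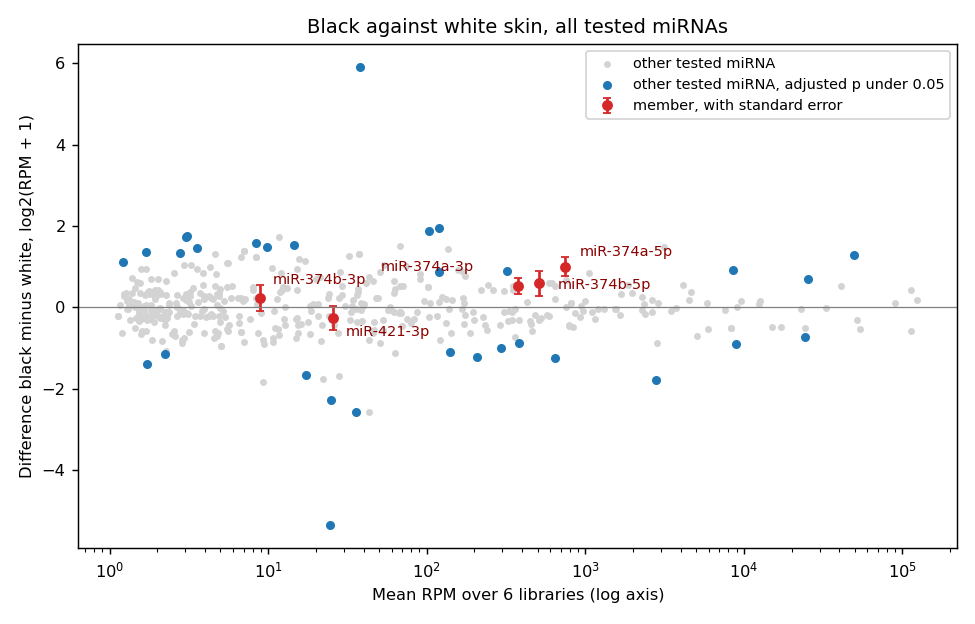
Difference black minus white on the log2(RPM + 1) scale against mean RPM over the 6 libraries (log axis) for all 454 tested miRNAs, with the 5 tested members in red with their standard errors and other called miRNAs in blue. ssc-miR-374a-5p lies at 0.999 and ssc-miR-421-3p, the lowest member, at -0.26.

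The make-up of the cluster is given as a description. The cluster was chosen on the difference of ssc-miR-374a-5p between the groups, and the share of this miRNA is not independent of that choice. ssc-miR-374a-5p supplied 48.6%, 47.0% and 47.9% of the members' reads in S03, S04 and S05, against 39.2%, 39.5% and 40.4% in S02, S06 and S07. In this share S02 lay with the other white libraries, although its RPM lay between theirs and those of the black libraries. The share of ssc-miR-374b-5p overlapped, at 29.1 ± 1.96% in black and 32.5 ± 5.48% in white skin (SD, n = 3 each). ssc-miR-421-3p supplied 1.12 ± 0.0771% in black and 2.40 ± 1.08% in white skin (SD, n = 3 each). In S02 it was 1.33%, against 2.37% in S06 and 3.49% in S07.

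Ratios within a library do not depend on how the library was scaled. The 5p arm of miR-374a exceeded its 3p arm by 2.12, 2.22 and 2.38 times in S03, S04 and S05, against 1.85, 1.61 and 1.42 times in S02, S06 and S07. The groups did not overlap, with a log2 ratio of 1.16 ± 0.08 in black and 0.69 ± 0.19 in white skin (SD, n = 3 each). How often the arm ratios of other hairpins separate the groups was not counted. For miR-374b the 5p arm was far in excess, by 49.4, 77.2 and 65.7 times in S03, S04 and S05, against 73.2, 60.1 and 28.8 times in S02, S06 and S07. These ratios overlapped between the groups, and S07, with its comparatively high 3p level, was the lowest.

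Between the paralogs, ssc-miR-374a-5p exceeded ssc-miR-374b-5p by 1.81, 1.55 and 1.58 times in S03, S04 and S05, against 1.04, 1.20 and 1.51 times in S02, S06 and S07. The log2 ratio was 0.72 ± 0.12 in black and 0.30 ± 0.27 in white skin (SD, n = 3 each), without overlap, although S07 came close to S04. How reads were assigned between the paralogs is not given, so this is a ratio of the listed read levels. ssc-miR-374b-5p and ssc-miR-421-3p, whose precursors lie 76 bases apart, were not in a fixed ratio. It was 24.0, 29.2 and 25.4 in S03, S04 and S05, against 28.4, 13.9 and 7.67 in S02, S06 and S07. Here S02 lay within the range of the black libraries. The ratios of arms and of paralogs come from the contrast on which the cluster was chosen and are descriptions. How many other pairs of miRNAs have ratios without overlap was not counted.

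**Figure D4:**
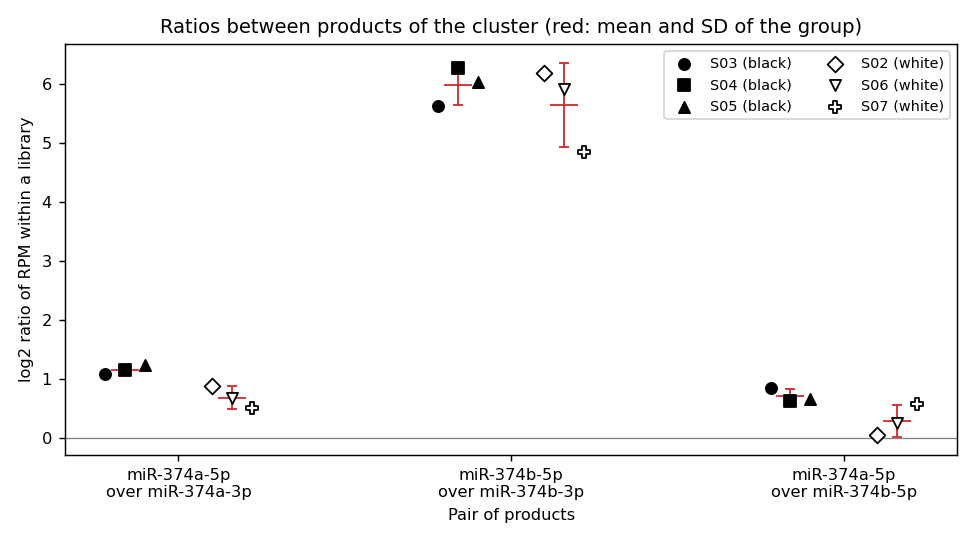
The log2 ratio of RPM within each library for 3 pairs of products, with black skin as filled symbols on the left of each pair and white skin as open symbols on the right; red lines are group means with SD (n = 3). The ratio of the miR-374a arms lies between 1.09 and 1.25 in black and between 0.51 and 0.89 in white skin, while the ratios of the miR-374b arms overlap.

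The members varied to different degrees like ssc-miR-374a-5p over the 6 libraries. Likeness was measured as the root mean square distance between log2(RPM + 1) profiles, each centred on its own mean, and includes the difference between the groups. The added 1 narrows the profile of ssc-miR-545-5p, which lies near 1 RPM. The distance from ssc-miR-374a-5p was 0.23 for ssc-miR-545-5p, 0.26 for ssc-miR-374a-3p and 0.27 for ssc-miR-374b-5p. It was 0.47 for ssc-miR-374b-3p and 0.74 for ssc-miR-421-3p. The median over 183 other tested miRNAs with a porcine name and a mean of at least 10 RPM was 0.63. Of these 183, 118 were closer to ssc-miR-374a-5p than ssc-miR-421-3p was, 45 were closer than ssc-miR-374b-3p, and 9 were closer than ssc-miR-374a-3p, its own opposite arm.

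The 5 closest miRNAs outside the cluster were ssc-miR-181c (0.17), ssc-miR-130a (0.17), ssc-miR-145-3p (0.22), ssc-miR-126-5p (0.22) and ssc-miR-26a (0.24). ssc-miR-126-5p is an arm of the endothelial miR-126, and miR-145 is enriched in smooth muscle. ssc-miR-181c, ssc-miR-130a and ssc-miR-26a are in none of the cell type lists used below. ssc-miR-126-5p measured 421.5, 397 and 424 RPM in black S03, S04 and S05, against 252.5, 167 and 260.3 RPM in white S02, S06 and S07. ssc-miR-145-3p measured 781, 685 and 762 RPM in black S03, S04 and S05, against 632, 429 and 434 RPM in white S02, S06 and S07. In the same order, ssc-miR-181c measured 20.9, 17.2 and 22.7 RPM in black libraries, against 12.5, 9.76 and 8.07 RPM in white ones. ssc-miR-130a measured 35.8, 30.7 and 44.6 RPM, against 24.1, 17.7 and 17.2 RPM. ssc-miR-26a measured 46426, 48638 and 48275 RPM, against 45513, 26682 and 29775 RPM. All 5 were picked by likeness to ssc-miR-374a-5p, so their higher values in the black libraries follow from that choice.

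**Figure D5:**
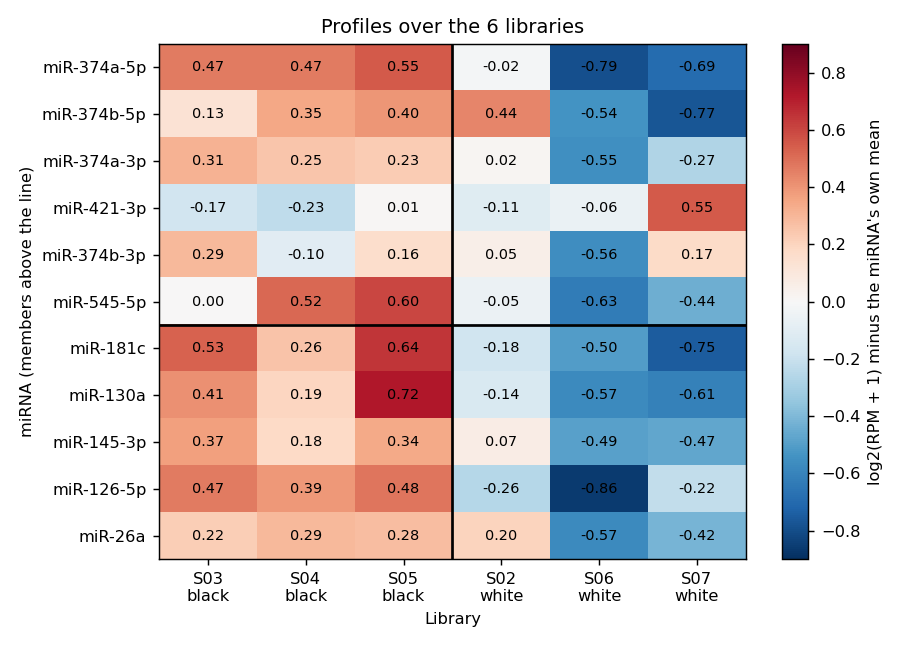
Profiles over the 6 libraries of the 6 members (above the line) and of the 5 miRNAs closest to ssc-miR-374a-5p (below it), as log2(RPM + 1) minus the miRNA's own mean; black libraries are on the left and white on the right. ssc-miR-374b-5p is at 0.44 in the white library S02, while ssc-miR-421-3p departs most in S07, at 0.55.

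In whole skin, fewer cells of a type and less RNA per cell cannot be told apart, so levels of cell type markers are given beside these differences. Of the epithelial miRNAs looked for, 2 of 7 have a row (ssc-miR-205 and ssc-miR-429), summing to 11807 to 16941 RPM in black libraries and 15361 to 23062 RPM in white ones, and miR-203, miR-141 and miR-200a, b and c have none in the table used here. The endothelial list, both arms of miR-126, summed to 28989 to 35451 RPM in black libraries and 17322 to 23899 RPM in white ones, and 2 of its 2 miRNAs were called higher. The smooth muscle list of miR-143 and miR-145 summed to 64998 to 84502 RPM in black libraries and 26728 to 34192 RPM in white ones, with 1 of 4 called higher. That 1, ssc-miR-143-3p, averaged 49220 RPM over all libraries and made up most of the sum, with a black-minus-white difference of 1.29. Not called were ssc-miR-143-5p (0.55), ssc-miR-145-3p (0.60) and ssc-miR-145-5p (0.36). Among all tested miRNAs 3.96% were called higher and 3.08% lower. The summed fibroblast, striated muscle, leukocyte, erythroid and melanocyte lists overlapped between the groups. Of their members, ssc-miR-214 among the fibroblast miRNAs was called lower and ssc-miR-142-3p among the leukocyte miRNAs higher. Of the melanocyte list ssc-miR-146a-5p and ssc-miR-204 have a row and miR-211 has none. The sum, 2274 to 3804 RPM in black libraries and 1863 to 3597 RPM in white ones, was mostly ssc-miR-146a-5p. That miRNA averaged 2653 RPM over all libraries, with a black-minus-white difference of 0.19. ssc-miR-204 averaged 90.4 RPM, with a difference of 0.82, so the sum says little about it. Neither was called. Whether the cell types of these lists bear on the higher level of miR-374a was not tested.

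Of the other named miRNAs of the X chromosome most were not called. Outside the cluster 30 miRNAs with a porcine name have a matched precursor there, and predicted miRNAs were left out of this list. Of these 30, 27 were tested, 3 were called higher and 2 lower in black skin, and 22 were not called (limma, adjusted p under 0.05). Over all 454 tested miRNAs 18 (3.96%) were called higher and 14 (3.08%) lower. The median difference was -0.28 over these 27, against -0.05 over the 242 tested miRNAs with a porcine name and 0.00 over all tested miRNAs. Higher were ssc-miR-450c-5p (1.59, standard error 0.38), ssc-miR-542-3p (1.53, standard error 0.33) and ssc-miR-450a (1.45, standard error 0.30), whose precursors neighbour each other. Lower were ssc-miR-224 (-2.28, standard error 0.41) and ssc-miR-221-3p (-1.24, standard error 0.25), the miRNA that the study follows as a regulator of the melanin enzyme TYRP1. Among those not called were ssc-miR-450b-5p (0.42, standard error 0.29) and ssc-miR-222 (-0.73, standard error 0.29). ssc-miR-221-5p, the other arm of miR-221, was not called either (-0.37, standard error 0.21). The number of calls depended on single libraries, in this list and over all tested miRNAs. Without S03, S05 or S06 limma called 0 higher and 0 lower in the list, against 6 and 3 (S03), 3 and 4 (S05) and 4 and 3 (S06) over all, while 3 or 4 of the list were higher and 2 or 3 lower at an unadjusted p under 0.05. Without S04 it called 0 higher (6 unadjusted) and 2 lower, against 9 and 9 over all, and without S07 0 higher (4 unadjusted) and 1 lower, against 7 and 7. Without S02 it called 2 higher and 2 lower, against 23 and 18 over all. With all 6 libraries edgeR called 2 higher and 2 lower in the list, and DESeq2 3 higher and 2 lower. At an unadjusted limma p under 0.05, 4 of the list were then higher and 5 lower. Over all tested miRNAs these shares were 15.0% and 10.6%. The unadjusted share over all was not counted with a library left out.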

How the data were processed

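The authors deposited 1 table of RPM values, a unit read from its columns, which each sum to 1e+06. The submitters' processing notes name Bowtie and Sscrofa11.1 but say for no step how they were used. How reads were counted, against which miRNA release and with which filters is not given in the sources used here. All 6 value columns were used and 0 left out. Per library, 100% of values came out as a whole number of reads (tolerance 0.001), 1 read being worth 0.0984 to 0.155 RPM, so reads were recovered. RPM are shares of a fixed total, so abundant miRNAs that change shift all the rest. No pair of libraries was a duplicate (smallest chi-square per degree of freedom 249). 

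Black minus white was fitted with limma 3.58.1 (R 4.3.3) and a mean-variance trend, on log2(RPM + 1), across all miRNAs kept by edgeR 4.0.16's filterByExpr (minimum count 10, minimum total 15), with Benjamini-Hochberg adjustment over all 454 and a threshold of 0.05. This scale understates changes of scarce miRNAs. Alternatives were edgeR and DESeq2 1.42.0 on recovered reads, TMM factors, other pseudocounts and feature sets, no filter, and leaving out each library. Testing all 15 pairs of members for level was added after seeing the data. Precursors were matched by name to a RefSeq gene table for 265 of 280 named miRNAs. The members and lists were chosen with earlier results of these data known. All members were named, with the called miRNAs of the X chromosome list (up to 6) and the 5 closest profiles. ssc-miR-214, ssc-miR-142-3p, ssc-miR-143-3p, ssc-miR-143-5p and ssc-miR-145-5p were named after their values were seen. The same holds for ssc-miR-450b-5p, ssc-miR-222 and ssc-miR-221-5p.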

Additional observations from a re-analysis of the deposited data

How the results depend on the processing

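The difference of each of the 5 tested members moved by less than the spread between replicates, and ssc-miR-374a-5p stayed the 1 called member, with edgeR, DESeq2, TMM factors, predicted miRNAs left out, pseudocounts of 0.1 and 10, and no filter. When scaling used named miRNAs alone, the median of the 242 then tested was -0.14. In the main fit it was -0.05 over the 242 named miRNAs and 0.00 over all. With this scaling ssc-miR-374a-5p was at 0.91. Leaving out 1 library gave 0 to 2 called members, and 0 to 2 called higher and 0 to 2 called lower in the X chromosome list, with 2 libraries left in a group. The differences then ranged from 0.85 to 1.24 (ssc-miR-374a-5p), 0.39 to 0.68 (ssc-miR-374a-3p), 0.35 to 0.95 (ssc-miR-374b-5p), 0.00 to 0.37 (ssc-miR-374b-3p) and -0.37 to -0.05 (ssc-miR-421-3p). Pseudocounts of 0.1 and 10 changed no call in the order of levels. Adjusting over the 5 neighbouring pairs, the plan, in place of all 15 gave the same calls. With 5 libraries the exact test of level order cannot go below 0.0625. The log2 differences stayed at 0.44 to 0.60 (ssc-miR-374a-5p minus ssc-miR-374b-5p), 3.71 to 3.97 (ssc-miR-374a-3p minus ssc-miR-421-3p), 1.33 to 1.52 (ssc-miR-421-3p minus ssc-miR-374b-3p) and 2.14 to 2.38 (ssc-miR-374b-3p minus ssc-miR-545-5p). Leaving out X-linked miRNAs with a precursor on another chromosome, chosen after seeing the data, gave the same counts of calls, 3 higher and 2 lower. Depth limits ssc-miR-545-5p, with 2 to 18 reads per library. No paired analysis was possible because the labels give no animal or pairing.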
